A study of Drosophila melanogaster with 6 samples.

Results

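A set of 10 genes in these whole-fly RNA sequencing data encodes neuropeptide precursors that are made in the gut, in the brain or in both: AstA, AstC, CCHa1, Orcokinin, Tk, NPF, Dh31, ITP, sNPF and Mip. They were taken by name and matched by symbol in the deposited comparison table to the FlyBase gene identifiers of the count files. This matching uses no measured value, but the genes were chosen with earlier results of these data known. All 10 were found among the 17737 genes in the files, and all 10 passed the filter on low values.

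Male w1118 flies, a white-eyed laboratory strain, developed on cornmeal food and were moved to their adult diet after eclosion. The HF group was kept on holidic food, a fully synthetic medium of defined nutrients, with no glucose added. The GSF group received this food enriched with glucose at 50 g/L. Both groups carried the same genotype, were virgin, lived at 25°C in a cycle of light and dark and were sampled after 20 days. Each diet had 3 libraries, and each library pooled RNA from 5 whole flies, so that head, gut and all other tissues were read together. In pooled whole flies, a lower level can come from fewer cells of a type or from less RNA in each cell, and these cannot be told apart.

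Library totals ran from 51826530 to 60990342 counts on HF and from 60378391 to 66493536 on GSF. Levels are given as CPM, gene counts scaled to a common library size after TMM normalisation, and a count of 3 is worth 0.0449 to 0.0583 CPM, depending on the library. The 10 genes held between 135 and 3123 counts in a library, so none was near that floor. Ribosomal RNA genes took 15.8% to 16.4% of the counts on HF and 18.3% to 21.9% on GSF. The diets were compared across 13373 genes, those that reached 1 CPM in 3 or more libraries, with edgeR's two-sided quasi-likelihood test. A gene was called when p was under 0.01 and the FDR, its p adjusted by Benjamini-Hochberg over all tested genes, was under 0.05. Fold changes are on the log2 scale with their standard error (SE). The study calls its libraries biological replicates, but neither it nor the labels say whether they came from separate cultures, so the p-values measure the spread between these libraries.

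Neuropeptides are cut from longer precursors, packed into dense core vesicles and released as hormones or as local signals that act on G protein-coupled receptors. In the fly midgut they come from enteroendocrine cells, scattered secretory cells that sense the gut contents, and most of these cells fall into a class marked by AstC and a class marked by Tk. Several of the same genes are also used by neurons of the brain and nerve cord, where they act on feeding, sleep, water balance and the release of other hormones.

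ITP was the only one of the 10 genes that passed the threshold, and it was higher on GSF. ITP encodes ion transport peptide, a hormone of neurosecretory cells that limits water loss and acts on thirst and excretion, and some clock neurons also make it. Its level was 33.1, 35.8 and 34.5 CPM in the HF libraries and 46.2, 46.7 and 45.7 CPM in the GSF libraries. The lowest GSF library was well above the highest HF library, and the spread within GSF was small. In the mean it stood at 34.5 ± 1.35 CPM with HF and at 46.2 ± 0.521 CPM with GSF (SD, n = 3 each). In raw counts, 1705, 2074 and 2084 reads fell on the gene on HF and 2930, 3123 and 2707 on GSF. ITP therefore rose by 0.42 on the log2 scale (SE 0.063, 95% interval 0.28 to 0.57, FDR = 0.0133, edgeR's quasi-likelihood test). This is a ratio of 1.34 between the diets, with an interval from 1.21 to 1.48. Among the 267 genes called higher on GSF it stood at place 204 by the size of its fold change, so most of these genes rose by more. With ribosomal RNA genes left out of the library totals, ITP kept its call (log2 fold change 0.42, FDR = 0.0205). Across all tested genes 5.14% were called, 2.0% higher and 3.14% lower on GSF, and 1 call among 10 genes does not set the list apart from that background.

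**Figure D1:**
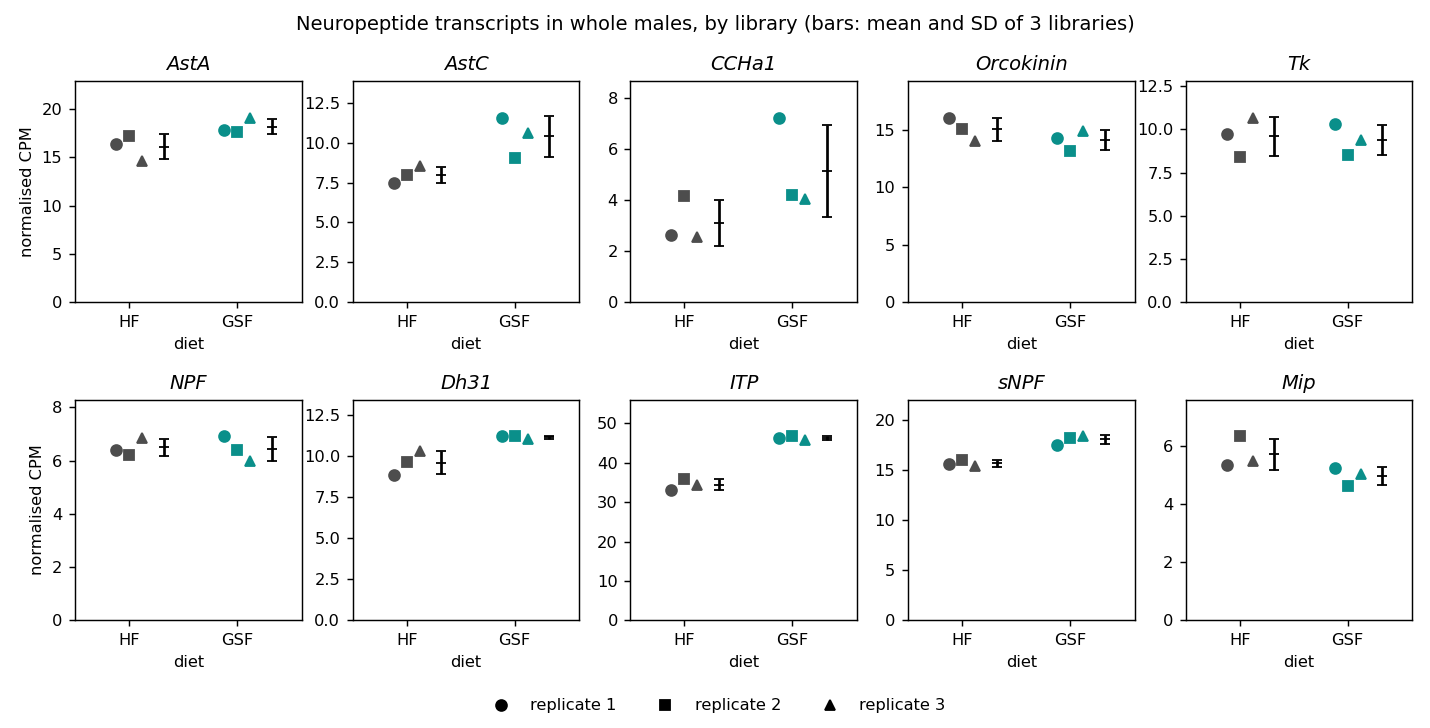
Level of each of the 10 neuropeptide genes in the 6 libraries, with diet on the x axis and TMM-normalised CPM on the y axis, which starts at 0 and has its own range for each gene; symbols mark the replicate number and bars the mean and SD of 3 libraries. The GSF libraries of ITP lie between 45.7 and 46.7 CPM, above the HF libraries at 33.1 to 35.8, while those of Tk and NPF overlap with the HF libraries.

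The size of the ITP difference depended little on any one library, but its call did. With each library left out in turn, the log2 fold change stayed between 0.39 and 0.47. The FDR was 0.0268 without HF replicate 2 and 0.0316 without HF replicate 3, which kept the call. It was 0.0613 when HF replicate 1 was left out, and 0.0573, 0.0507 and 0.0537 when GSF replicates 1, 2 and 3 were, which ended it. ITP lies on the plus strand of chromosome 2R (FBgn0035023, 24537421 to 24558961 of BDGP6.54) and has 5 annotated transcripts over 4686 bp of exon. Splicing of this gene gives an amidated ITP and longer ITP-like forms, and counts per gene do not separate them. Of its exonic bases, 296 (6.32%) are shared with CG4622 on the other strand, and the sources used here do not state whether counting used strand. CG4622 had 18.5, 18.7 and 18.5 CPM on HF and 19.7, 20.2 and 18.5 CPM on GSF, and its log2 fold change was 0.07 (SE 0.069, FDR = 0.704). The values of this neighbour overlapped between the diets. Its counts were 52.1% to 56.0% of those of ITP on HF and 40.4% to 43.1% on GSF. The part of reads from CG4622 in the ITP counts was not tested.

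Of the enteroendocrine peptides of the AstC class, AstC had all GSF libraries above all HF libraries but did not pass the threshold. AstC encodes allatostatin C, a somatostatin-like peptide that gut cells release as a nutrient signal and that also acts in the brain. Its levels were 7.48, 7.97 and 8.52 CPM on HF and 11.6, 9.02 and 10.6 CPM on GSF. GSF replicate 1 was the highest library and GSF replicate 2 lay close to the HF range. On the log2 scale AstC differed by 0.38 (SE 0.11, 95% interval 0.12 to 0.64, FDR = 0.106), a ratio of 1.30 between 1.09 and 1.56. AstC was called by DESeq2 on the same genes, with an FDR of 0.0406, where DESeq2 called 10.7% of all tested genes. With each library left out in turn the log2 fold change lay between 0.30 and 0.47. AstC (FBgn0032336) is on chromosome 2L, minus strand, 11076165 to 11081399.

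CCHa1 had the largest fitted difference of the 10 genes and the widest error. It encodes CCHamide-1, a peptide of gut endocrine cells and of clock neurons. The libraries held 2.62, 4.15 and 2.55 CPM on HF and 7.23, 4.19 and 4.03 CPM on GSF. The diets overlapped, since GSF replicate 3 was below HF replicate 2, and GSF replicate 1 alone was 1.79 times the lowest GSF library. The coefficient of variation on HF was 29.1%, and on both diets it was the highest of the 10 genes. The log2 fold change was 0.73 (SE 0.28, 95% interval 0.07 to 1.38) and did not pass, with an FDR of 0.206. It was 0.40 without GSF replicate 1 and 1.01 without HF replicate 2, so single libraries set much of its size. CCHa1 (FBgn0038199) lies on chromosome 3R, minus strand, 14092504 to 14096835, with 1 annotated transcript.

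AstA encodes allatostatin A, a peptide of brain neurons and posterior midgut cells that acts against feeding and promotes sleep. Its level was 16.4, 17.2 and 14.7 CPM on HF and 17.8, 17.6 and 19.1 CPM on GSF. Every GSF library was above every HF library, by a narrow margin at the border. Its log2 fold change of 0.18 (SE 0.085, 95% interval -0.02 to 0.37, FDR = 0.310) did not pass. AstA (FBgn0015591) is on chromosome 3R, minus strand, 24760530 to 24765071.

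Orcokinin is spliced into forms for different peptides, of which one is made by gut endocrine cells and another by brain neurons. It held 16.1, 15.1 and 14.01 CPM on HF and 14.3, 13.2 and 14.95 CPM on GSF. The ranges of the diets overlapped, and the log2 fold change was -0.09 (SE 0.086, 95% interval -0.29 to 0.11, FDR = 0.675). The interval leaves room for a modest difference in either direction. Orcokinin (FBgn0034935) has 3 annotated transcripts on chromosome 2R, minus strand, 23946959 to 23949076, and counts per gene do not separate its gut and brain forms.

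Of the peptides of the Tk class, Tk and NPF had fitted differences near 0. Tk encodes tachykinins, which in the gut restrain lipid synthesis in enterocytes and in the brain modulate smell and feeding. Its levels of 9.72, 8.42 and 10.7 CPM on HF overlapped with 10.3, 8.53 and 9.37 CPM on GSF. The log2 fold change was -0.03 (SE 0.12, FDR = 0.938), and its 95% interval from -0.30 to 0.24 covers ratios between 0.812 and 1.18. NPF encodes neuropeptide F, the fly relative of neuropeptide Y, which brain neurons use to drive feeding and gut cells release after sugar. It held 6.42, 6.20 and 6.86 CPM on HF and 6.91, 6.39 and 5.99 CPM on GSF, so that the highest and the lowest library were both on GSF. Its fitted value was -0.01 (SE 0.095, FDR = 0.972), and the interval of the ratio ran from 0.850 to 1.15. Tk (FBgn0037976, 11994175 to 12005473, minus strand) and NPF (FBgn0027109, 16609220 to 16611325, plus strand) are both on chromosome 3R. Their small fold changes turned sign when single libraries were left out, between -0.10 and 0.054 for Tk and between -0.069 and 0.044 for NPF.

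Dh31, which shares its gut cells with Tk and NPF, had a higher fitted level on GSF but did not pass. It encodes a diuretic hormone related to calcitonin that drives gut contractions and fluid secretion and, in the brain, acts on sleep. Levels were 8.86, 9.61 and 10.3 CPM on HF and 11.2, 11.2 and 11.02 CPM on GSF. The GSF libraries were almost level, with a coefficient of variation of 0.879%, and lay above all HF libraries, which varied by 7.43%. The fitted difference was 0.22 on the log2 scale (SE 0.083, 95% interval 0.02 to 0.41, FDR = 0.205). Dh31 (FBgn0032048) is on chromosome 2L, minus strand, 8491868 to 8506845.

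The remaining pair of genes is used widely in the brain. sNPF encodes short neuropeptide F, which promotes feeding and acts on the insulin-producing neurons. It had 15.7, 16.0 and 15.4 CPM on HF and 17.5, 18.2 and 18.4 CPM on GSF, with no overlap and a tight spread on both diets. The log2 fold change of 0.20 (SE 0.067, 95% interval 0.05 to 0.36) had an FDR of 0.143 and did not pass, although its interval excluded 0. With each library left out in turn it stayed between 0.19 and 0.24. sNPF (FBgn0032840) lies on chromosome 2L, plus strand, 20027915 to 20056373.

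Mip encodes myoinhibitory peptides, also called allatostatin B, which slow gut muscle and act on satiety and sleep. It held 5.33, 6.33 and 5.48 CPM on HF and 5.24, 4.61 and 5.03 CPM on GSF. Among the 10 genes it alone had every GSF library below every HF library, and its border libraries nearly touched. On the log2 scale its value was -0.20 (SE 0.11, 95% interval -0.46 to 0.05, FDR = 0.367) and did not pass. Mip (FBgn0036713) is on chromosome 3L, minus strand, 17344947 to 17349666.

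Over the list, 6 of 10 fitted fold changes were above 0 and 4 were below it. The median was 0.19 on the log2 scale, against 0.01 over all tested genes, of which 52.3% were above 0. All GSF libraries lay above all HF libraries for 5 of the 10 genes (AstA, AstC, Dh31, ITP and sNPF), where 12.3% of tested genes had that order, and below them for Mip, where 12.9% had it. With p under 0.05 and no adjustment, 5 were higher on GSF (AstC, CCHa1, Dh31, ITP and sNPF) and none was lower, where 9.77% of all tested genes were higher and 9.90% lower. The genes were chosen with earlier results of these data known, and these counts describe the list without testing it. The summed level of the 10 genes was 121.7 to 126.9 CPM on HF and 139.7 to 148.3 CPM on GSF, and ITP gave the largest part of both sums. With each library left out in turn, the median of the list ran from 0.15 to 0.24.

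**Figure D2:**
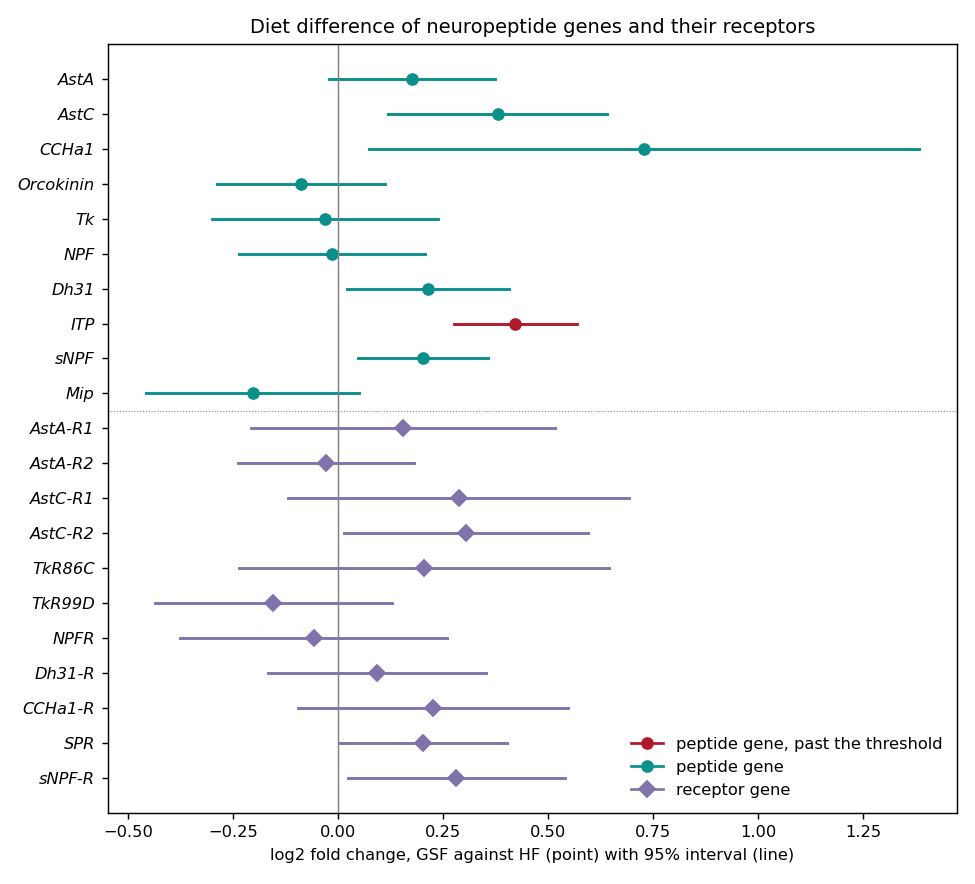
Log2 fold change, GSF against HF, on the x axis for the 10 neuropeptide genes and for the 11 receptor genes listed on the y axis; points are the fitted values of edgeR's quasi-likelihood test on 3 libraries a diet and lines their 95% intervals. ITP, at 0.42 with an interval from 0.28 to 0.57, is the only gene past the threshold, and the interval of CCHa1, from 0.07 to 1.38, is the widest.

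The precision of the test differed between the genes. Standard errors of the log2 fold change ran from 0.063 for ITP to 0.28 for CCHa1, and the median over all tested genes was 0.10. GSF replicate 1 was the highest GSF library for 6 of the 10 genes and the lowest for 1, while GSF replicate 2 was the lowest for 5. The libraries that stood out were thus not the same from gene to gene, and none was at one end for all 10. Leaving out HF replicate 1, or any 1 of the GSF libraries, left 0 of the 10 genes called by edgeR's quasi-likelihood test, while leaving out HF replicate 2 or HF replicate 3 left 1.

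**Figure D3:**
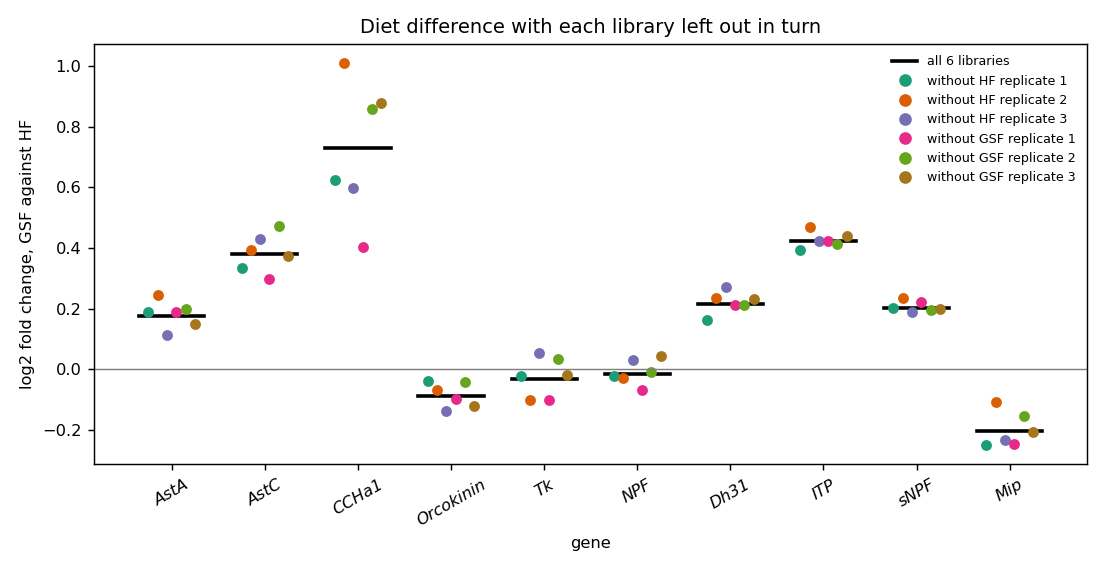
Log2 fold change, GSF against HF, on the y axis for each of the 10 neuropeptide genes on the x axis; black bars are the values from all 6 libraries and coloured points those with 1 library left out. The values of ITP stay between 0.39 and 0.47, those of CCHa1 spread from 0.40 to 1.01, and those of Tk and NPF lie on both sides of 0.

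To compare levels between genes, CPM were divided by the length of the exons of each gene, in kb. This length joins the exons of all annotated transcripts, so it can exceed that of any single transcript. For a gene with several transcripts, such as ITP with 5, the level per kb can therefore come out too low. On this scale, averaged over the 6 libraries, AstA was first with 11.8 CPM per kb, followed by NPF with 10.8 and Orcokinin with 9.80. ITP came next with 8.61 CPM per kb, and was followed by Dh31, between 6.85 and 8.64 over the libraries, AstC with a mean of 7.65 and sNPF with 6.89. The lowest levels were those of Tk (5.86 CPM per kb), CCHa1 (4.82) and Mip (3.82). ITP, which had the most counts, was thus below AstA, NPF and Orcokinin once its long exons were taken into account. Over the 6 libraries of both diets each gene overlapped with the next in this order. The order was not the same within each diet. CCHa1, with a mean of 3.62 CPM per kb, was below Mip (4.09) on HF, and with 6.01 CPM per kb it was above Tk (5.80) on GSF. On HF ITP was just below Dh31 (7.40 CPM per kb), and on GSF it was above Orcokinin (9.50). On this per-length scale ITP had 7.36 ± 0.288 CPM per kb (SD, n = 3) on HF and 9.86 ± 0.111 CPM per kb on GSF. The levels are those of whole males, and they do not say how much of each gene's RNA came from gut or brain.

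**Figure D4:**
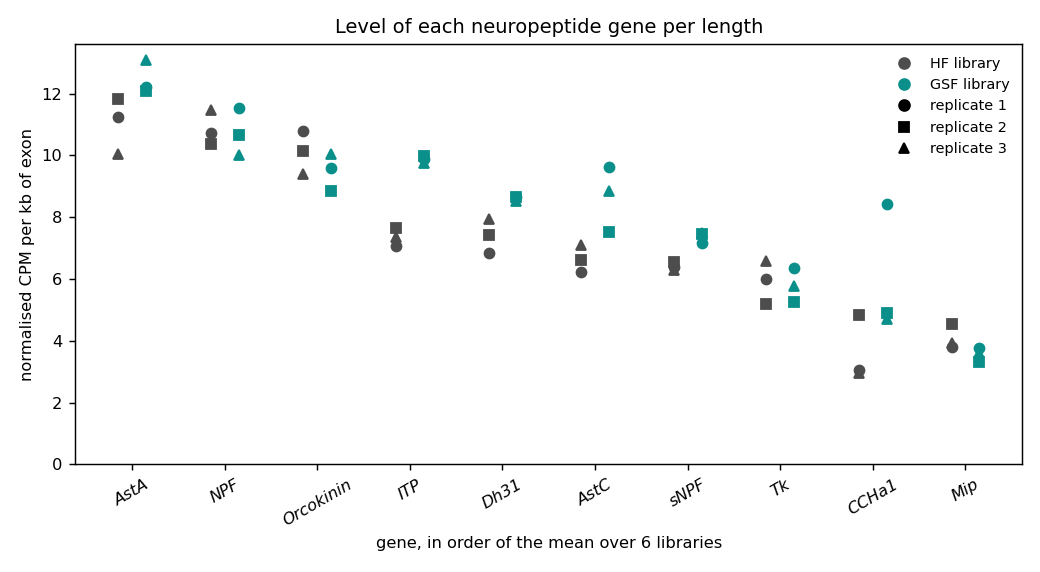
Normalised CPM per kb of exon on the y axis for the 10 neuropeptide genes on the x axis, in the order of their mean over 6 libraries; each point is a library, with colour for diet and symbol for replicate number. The means fall from 11.8 CPM per kb for AstA to 3.82 for Mip, and the libraries of neighbouring genes overlap.

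None of the receptors of these peptides was called. The list held 11 receptor genes for 8 of the 10 peptides and none for ITP or Orcokinin, and all 11 were tested. With edgeR's quasi-likelihood test 0 of 11 were called, and DESeq2 also called 0, where these tests called 5.14% and 10.7% of all tested genes. At an unadjusted p under 0.05, 3 were higher on GSF, where 9.77% of all tested genes were, and 0 were lower. For 3 of 11 every GSF library was above every HF library, an order found in 12.3% of tested genes. The median log2 fold change of the receptors was 0.20, with 8 above 0 and 3 below it.

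AstC-R2, a receptor for AstC, had 2.27, 2.44 and 2.56 CPM on HF and 2.87, 3.28 and 2.84 CPM on GSF. These ranges did not overlap, and the log2 fold change of 0.30 (SE 0.12, FDR = 0.233) did not pass. The other AstC receptor, AstC-R1, had a log2 fold change of 0.29 (SE 0.17, FDR = 0.437) from means of 1.42 and 1.74 CPM. sNPF-R, the receptor for sNPF, held 4.20, 3.58 and 3.90 CPM on HF and 4.403, 5.03 and 4.76 CPM on GSF. Its diets did not overlap either, with a log2 fold change of 0.28 (SE 0.11, FDR = 0.216). SPR, which binds both the mating signal sex peptide and the Mip peptides, had 8.90, 8.61 and 8.57 CPM on HF and 9.26, 10.8 and 9.98 CPM on GSF. Its log2 fold change was 0.20 (SE 0.086, FDR = 0.246), and 999 of its exonic bases are shared with a gene on the other strand. For these 3 receptors the direction of the fitted value was up, while that of Mip, a ligand of SPR, was down.

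The other receptors had wider or smaller differences. Dh31-R, the most abundant of them in CPM, had means of 18.7 CPM on HF and 19.99 CPM on GSF and a log2 fold change of 0.09 (FDR = 0.756). The tachykinin receptors TkR99D and TkR86C had log2 fold changes of -0.15 (FDR = 0.575) and 0.20 (FDR = 0.654), and the NPF receptor NPFR had -0.06 (FDR = 0.894). CCHa1-R, which binds CCHamide-1, had 0.23 (FDR = 0.444), beside the larger but variable value of its ligand. The allatostatin A receptors AstA-R1 and AstA-R2 had 0.15 (FDR = 0.692) and -0.03 (FDR = 0.926).

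Among 31 further genes for neuropeptides and peptide hormones, 23 were tested, and 1 was called higher and 1 lower on GSF, beside 2.0% and 3.14% of all tested genes. The called pair was Proc and Akh. Proc, which encodes the muscle-acting peptide proctolin, had 14.2, 15.2 and 14.9 CPM on HF and 18.8, 18.5 and 19.2 CPM on GSF. It rose by 0.35 on the log2 scale (SE 0.068, FDR = 0.0295), close in size to ITP. Akh encodes adipokinetic hormone, the glucagon-like hormone of the corpora cardiaca that mobilises stored fat and sugar and whose release is a target of several gut peptides. Its level was 21.5, 23.6 and 18.6 CPM on HF and 15.9, 12.2 and 14.5 CPM on GSF, and its fitted value on the log2 scale was -0.58 (SE 0.13, FDR = 0.0426). Akh thus fell where ITP and Proc rose, and the diets did not overlap for any of the 3 genes. Neither call was firm when libraries were left out, since Proc passed in 0 of 6 such fits (FDR 0.0564 to 0.122) and Akh in 1 of 6 (0.0290 to 0.137).

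CCHa2 encodes CCHamide-2, a nutrient-responsive peptide of fat body and gut that is a close relative of CCHa1. It held 51.5, 68.5 and 63.1 CPM on HF and 44.7, 51.1 and 34.9 CPM on GSF, so its libraries were lower on GSF without overlap. Its log2 fold change of -0.49 (SE 0.16, FDR = 0.133) did not pass, whereas the fitted value of CCHa1 was positive. CCHa2 was called with the replicate block, a term for the replicate number in the same test (FDR = 0.0449), where 13.3% of all tested genes were called, and by DESeq2 (FDR = 0.0370). The median of the 23 tested genes was -0.08, and 9 of them were above 0 against 14 below. Of the others with high levels, Nplp1 had a log2 fold change of 0.05 and Nplp2 of -0.04, neither past the threshold. CCAP and Nplp3, chosen after their values were seen, had log2 fold changes of 0.58 and -0.80 and were called only in some alternatives, with FDR of 0.0708 and 0.0639 in the test without the block and 0.00935 and 0.00974 with it. The 8 genes that were not tested, among them Burs, CNMa and RYa, were below the filter on low values.

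The genes that mature and release peptides had small differences. Of 13 such genes, 0 were called by edgeR's quasi-likelihood test, where 5.14% of all tested genes were. DESeq2 called 2 higher, where it called 10.7% of all tested genes in either direction. At an unadjusted p under 0.05, 3 were higher and 1 lower, where 9.77% and 9.90% of all tested genes were. The median log2 fold change of the 13 genes was 0.14, with 9 above 0 and 4 below. IA-2, a membrane protein of dense core vesicles, had means of 345 CPM on HF and 392 CPM on GSF (log2 fold change 0.18, FDR = 0.346). Phm, which starts the amidation of many peptides, had a value of -0.05 (FDR = 0.873), and svr, a carboxypeptidase that trims them, had 0.14 (FDR = 0.384). Cadps and Sytalpha, chosen after their values were seen and active in vesicle release, had 0.32 and 0.28. Both were called with the replicate block (FDR = 0.0211 and 0.0396) and by DESeq2 (FDR = 0.0296 and 0.0275). Neither was called by edgeR's quasi-likelihood test without the block (FDR = 0.0835 and 0.0757). Of 6 genes for extracellular peptidases that break peptides down, 0 were called by edgeR's quasi-likelihood test or by DESeq2. At an unadjusted p under 0.05, 1 was lower and 0 higher, where 9.90% and 9.77% of all tested genes were. The lower gene was Ance, an angiotensin-converting enzyme relative, at -0.21 (FDR = 0.158), while the neprilysins Nep2 and Nep4 had -0.11 and 0.09.

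**Figure D5:**
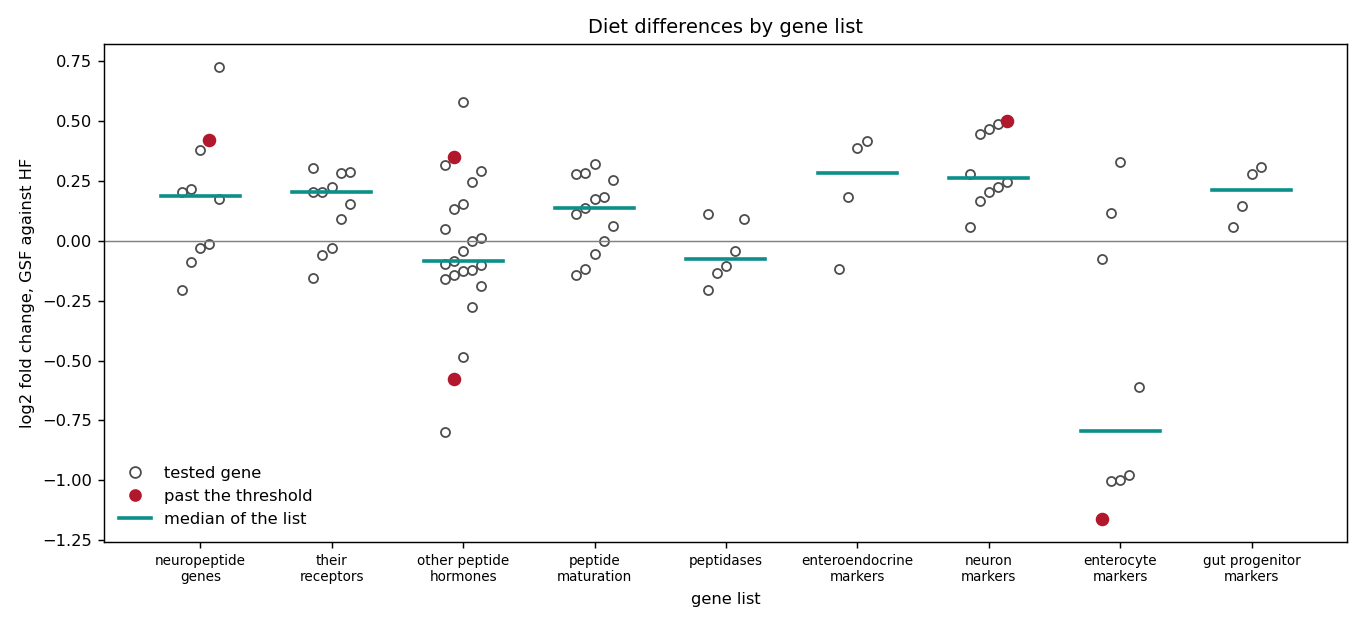
Log2 fold change, GSF against HF, on the y axis for every tested gene of the 9 gene lists on the x axis; filled points passed the threshold and bars are the median of each list. The median is 0.19 for the 10 neuropeptide genes and 0.26 for the neuron markers, and the enterocyte markers have the lowest at -0.79.

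Neurons make many of these peptides, and 1 of 10 neuron markers was called, beside 5.14% of all tested genes. All 10 neuron markers had fitted values above 0, their median was 0.26 on the log2 scale, and their summed level was 411.9 to 446.6 CPM on HF and 464.3 to 559.3 CPM on GSF. Of these, 8 were higher at an unadjusted p under 0.05, where 9.77% of all tested genes were, and for 3, brp among them, the libraries of the diets overlapped. The called gene, Syx1A, a syntaxin of the synapse, rose by 0.50 (SE 0.10, FDR = 0.0336) but was called in 0 of 6 fits that left out a library. Syx1A shares 447 exonic bases with eIF4EHP on the same strand, and strand cannot tell apart the reads that fall there. With the replicate block 7 of the 10 were called, where 13.3% of all tested genes were. Of the most abundant markers, nSyb and Syt1 of the synaptic vesicle had values of 0.22 (FDR = 0.161) and 0.28 (FDR = 0.170) and were called with the block only. The active zone gene brp, at 0.17, was called neither without the block (FDR = 0.440) nor with it (FDR = 0.240). The part of the neuron markers in the ITP result and in the values of the other peptides was not tested.

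Markers of enteroendocrine cells could be read only in part. Of 7 listed genes, 4 were tested, and the defining transcription factors tap, sc and Poxn lay below the filter at no more than 0.45 CPM in any library. The 4 tested genes pros, nrv3, IA-2 and 7B2 are also expressed in neurons. None of them was called by edgeR's quasi-likelihood test. At an unadjusted p under 0.05, 2 were higher, where 9.77% of all tested genes were, and DESeq2 called 2, where it called 10.7%. The pair was pros, with a log2 fold change of 0.39 (FDR = 0.0633), chosen after its values were seen, and nrv3, with 0.42 (FDR = 0.0740). Both were called with the replicate block, where 13.3% of all tested genes were. The fourth, 7B2, a partner of the peptide-cutting protease amon, had -0.12 (FDR = 0.413). The summed level of the list was 469.8 to 501.5 CPM on HF and 500.5 to 612.6 CPM on GSF. IA-2 gave most of this sum, with 331.6 to 354.8 CPM on HF and 342.1 to 428.8 CPM on GSF, and its diets overlapped. IA-2 and 7B2 also belong to the list of genes that mature and release peptides. The part of the enteroendocrine markers in the results was not tested.

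Of the other gut cells, enterocytes were read by 8 markers, and 1 of these, for a digestive enzyme, was called. Among these markers, 0 were called higher and 1 lower, beside 2.0% and 3.14% of all tested genes. The summed level was 4337 to 5600 CPM on HF and 1979 to 3298 CPM on GSF. Most of it came from the enzyme genes alphaTry, Amy-p, Amy-d and betaTry, with means of 1128, 1160, 933 and 425 CPM over 6 libraries. The means of nub, mex1, Vha100-4 and Npc2f were 34.1, 31.7, 11.7 and 7.28 CPM. Of these, nub and Vha100-4 had log2 fold changes of 0.12 (FDR = 0.527) and -0.08 (FDR = 0.936), and Npc2f had -0.999 (FDR = 0.0830). The called gene was the amylase gene Amy-p, which fell by 1.16 on the log2 scale (FDR = 0.0201). The trypsin alphaTry, at -0.61 (FDR = 0.0921), and the second amylase Amy-d, at -1.01 (FDR = 0.0698), did not pass, while mex1, a brush border gene chosen after its values were seen, had 0.33 (FDR = 0.0668). These 3 genes were called with the replicate block (FDR = 0.0264, 0.0182 and 0.0263) and by DESeq2. Each of the 2 fits called 5 of the 8 markers, 1 higher and 4 lower, where they called 13.3% and 10.7% of all tested genes. The 4 markers of gut progenitor cells had a median of 0.21 and 0 calls by edgeR's quasi-likelihood test or DESeq2. At an unadjusted p under 0.05, 1 was higher (Sox21a, log2 fold change 0.31), where 9.77% of all tested genes were. The summed level of these 4 markers was 21.4 to 25.1 CPM on HF and 25.1 to 25.8 CPM on GSF. The values of esg and Dl, at 0.15 and 0.06, were close to 0, and the part of these cells in the peptide values was not tested.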

How the data were processed

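Per the labels and the study's methods, the authors trimmed paired reads with Trimmomatic, aligned them to the bdgp6 transcriptome with HISAT2 2.1.0, converted them with SAMtools 1.8 and counted them with Rsubread. The deposited count files hold raw counts per FlyBase gene. A deposited table pairs these identifiers with symbols, which were used, and holds the authors' log fold changes, log CPM, p-values and FDR, which were not. The analysis used R 4.3.3, with edgeR 4.0.16 (TMM, quasi-likelihood test) and DESeq2 1.42.0 as an alternative, both tested on simulated data. Standard errors are the log2 fold change over the root of F. Coordinates and exon lengths are from the Ensembl annotation of BDGP6.54.

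The members and lists were chosen with earlier results of these data known. Named are the members, their receptors and, of the other lists, called genes and the 3 with the highest mean CPM, others being marked as chosen later. Of 100 list entries, 93 matched through the deposited symbols and 0 were unmatched. Same-numbered libraries deviated together across the 13373 genes (correlations of 0.188, 0.247 and 0.476, against -0.309 to 0.115 for other pairs), so the numbers were taken as pairing them on the counts alone. Alternatives were other scalings, filters and tests, no ribosomal RNA genes, leaving out single libraries and a replicate block.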

Additional observations from a re-analysis of the deposited data

How the results depend on the processing

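Of 130 values of the 10 neuropeptide genes under the alternatives, 121 kept their direction and their side of the threshold. Another scaling, another filter or leaving out ribosomal RNA genes changed none of them. DESeq2 called 1428 genes, AstC among them, and so 2 of the 10 neuropeptide genes. The replicate block gave 1782 calls across all genes, against 687 without it, and changed no call of the 10 neuropeptide genes. In edgeR's quasi-likelihood test with the block, the FDR was 0.00658 for ITP and 0.0609 for AstC. Values in the text not marked otherwise come from the test without the block, which does not use the pairing. The fits with a library left out did not use it either. Calls across all genes ran from 122 (without GSF replicate 1) to 520 (without HF replicate 3) with a library left out, and those of the neuropeptide genes from 0 to 1. Among 50 genes followed under all alternatives, signs turned only in such fits. These ranged from -0.10 to 0.054 for Tk, from -0.069 to 0.044 for NPF, from -0.089 to 0.012 for AstA-R2, from -0.13 to 0.060 for NPFR, from -0.18 to 0.090 for Nplp2, from -0.13 to 0.024 for Phm and from -0.0098 to 0.17 for Dl. Vha100-4, named in the text but not among the 50, ran from -0.36 to 0.23 with a library left out. Each such fit holds 1 library fewer. The cause of these turned signs and of the 4 ITP calls lost with a library left out was not tested. With 3 libraries a diet, the precision of each gene is that of its interval in the text.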
